A study of Mus musculus with 2 samples.

Results

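To describe immediate early genes in sorted leukemia cells, 10 genes were read cell by cell: Fos, Fosb, Jun, Junb, Jund, Egr1, Dusp1, Zfp36, Ier2 and Atf3. They were found by symbol among the 31053 genes of the matrices, and all 10 were present. The genes were chosen by name after their levels in these same libraries had been seen, so every ratio below is a description and supports nothing beyond itself. The leukemia was driven by AML1-ETO9a (AE9a), a shortened fusion oncogene that causes acute myeloid leukemia in mice, and its cells also had GFP and UBCER-Cre, a broadly expressed recombinase that tamoxifen switches on. After the transplanted mice fell ill they received oil or tamoxifen, and 3 days after the first dose GFP+ Lin- c-Kit+ cells, which have the Kit receptor and no markers of mature lineages, were taken from the spleen. Each injection has 1 library, a pool of 3 mice, and no label ties a cell to a mouse. The genotype is given in conflicting ways. The title, genotype and treatment labels have Usp18f/f against Usp18delta/delta, and the treatment protocol alone has Usp18+/f with a heterozygous deletion. The paper describes single-cell data for a heterozygous and for a homozygous deletion. The libraries are therefore called by their injection. With no replicate libraries there was no test, and 95% intervals in parentheses cover counting error alone. The injection cannot be told apart from the mice of a library or from how its cells were handled and sorted.

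Immediate early genes are switched on within minutes of a stimulus without new protein synthesis, mainly by MAP kinases acting on SRF, its ETS partners and CREB at the promoter. FOS and JUN proteins pair to form AP-1, a dimer that binds DNA at short palindromes and drives later genes in growth, differentiation and stress. Most of these transcripts decay within the hour, and the response carries its own brakes: DUSP1 dephosphorylates MAP kinases, and ZFP36 (tristetraprolin) speeds the decay of AU-rich messenger RNAs. In blood progenitors the same genes respond to cytokines, adhesion and stress.

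The promoter bases of the 4 genes with the lowest ratios, leaving out the rarely seen Atf3, are shown first, since signals that induce immediate early genes reach them there. They come from the RefSeq promoter table (GRCm38.p6), read 5′ to 3′ on the strand of the gene, from 150 bases before the RefSeq start site up to the first base that GENCODE M21 places in an exon of the gene. They lie at chr12:85473740-85473889 (plus strand) for Fos, chr7:19310052-19310195 (minus) for Fosb, chr4:95052223-95052372 (minus) for Jun and chr17:26508520-26508622 (minus) for Dusp1. Capitals mark the cyclic AMP response element (CRE) TGACGTCA, its core TGACG, the AP-1-like site TGACATCA and the TATA box TATAAA.
Fos: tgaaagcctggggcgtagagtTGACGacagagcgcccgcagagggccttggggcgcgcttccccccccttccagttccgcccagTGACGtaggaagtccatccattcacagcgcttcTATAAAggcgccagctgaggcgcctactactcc
Fosb: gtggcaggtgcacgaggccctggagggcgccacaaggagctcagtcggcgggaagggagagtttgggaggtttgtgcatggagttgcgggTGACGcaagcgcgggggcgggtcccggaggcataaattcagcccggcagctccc
Jun: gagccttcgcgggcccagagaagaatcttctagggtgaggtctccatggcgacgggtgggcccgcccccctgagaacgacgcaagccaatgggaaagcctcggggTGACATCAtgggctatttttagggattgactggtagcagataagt
Dusp1: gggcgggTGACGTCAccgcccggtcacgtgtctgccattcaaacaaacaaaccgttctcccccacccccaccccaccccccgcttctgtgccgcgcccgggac

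Windows of 250 bases before to 50 after the start were searched on both strands for each motif, among 32817 windows of the table, and 8 of the 10 genes had one (Egr1 and Ier2 did not). The core TGACG, which the full element contains, was in 5 of the 8 (Fos, Fosb, Junb, Dusp1 and Atf3) and in 20.8% of all windows. In Fos it lay from -66 to -62 and from -129 to -125, and in Fosb from -60 to -56. The full CRE was in Dusp1 alone, from -143 to -136, and in 1.79% of windows. TGACATCA was in Jun alone, from -45 to -38, and in 3.62% of windows, and the standard AP-1 site TGACTCA was in none of the 8 and in 5.20%. The CArG box, to which SRF binds, was in Zfp36 alone, from -58 to -49, and in 1.63%. TATAAA was in Fos, from -33 to -28, and in Junb just past the start, and in 13.6% of windows, while the SP1 site GGGCGG was in 6 of the 8 and in 35.6%. These are matches of letters and say nothing of what is bound. Sites further from the start were not searched, so a motif not found here may lie outside the window. The RefSeq start lay 53656 bases from the outermost GENCODE start for Dusp1, 34706 for Atf3, 1210 for Jund and 1025 for Zfp36.

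Cells were kept from 500 detected genes and up to 10% mitochondrial UMIs, a UMI being 1 captured transcript. The library labelled oil held 6838 of them and the library labelled tamoxifen 6472, with medians of 8622.5 and 8209.5 UMIs. Ribosomal protein genes took 24.3% and 28.0% of UMIs and mitochondrial genes 6.80% and 6.83%, and 14 barcodes occurred in both libraries, 12 of them among kept cells. Usp18, the targeted gene, had 371 and 933 UMIs. Its log2 ratio was 1.45 (1.28 to 1.63), higher in the library labelled tamoxifen. As 3′ reads do not show whether an exon upstream was deleted, the deletion was not tested. Isg15, an interferon-stimulated gene whose pathway USP18 restrains, was at 47.8 CPM (46.2 to 49.5) against 113 (111 to 116), higher with tamoxifen. Kit, the receptor used in the sort, was at 171 and 232 CPM (UMIs scaled to a common library total), and Ptprc, the common leukocyte antigen CD45, had only 9 and 3 UMIs. Listed markers of neutrophils, T and NK cells, B cells and stroma summed to at most 0.758 CPM per list in either library, with S100a8, Ly6g, Cd3g, Cd4, Pax5 and Col1a1 among those at 0 in both. Macrophage markers summed to 8.52 and 8.62 CPM. Mast cell and basophil markers summed to 2394 and 2018 CPM, and erythroid markers to 7772 and 9096 CPM.

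All 10 genes were lower in the library labelled tamoxifen, although Atf3, with 33 UMIs in all, was higher under a stricter cell filter given below. Together they made up 0.128% of UMIs in the oil sample and 0.0780% in the other. Of 9 that reached 100 UMIs in both libraries together, 4 were at least 2-fold lower, where 0.142% of the 10527 genes with that minimum were (and 0.475% were at least 2-fold higher, none of them a member). Their median log2 ratio was -0.94, against -0.06 over all genes, whose middle 50% lay between -0.20 and 0.085. The ratio was below 1 for 9 of 9, where it was for 61.7% of all genes, and the counting interval lay below 0 for 9 of 9, where it did for 39.8% (and above 0 for 19.3%). The genes were chosen from this contrast, so nothing is read from these counts. Under the stricter filter, in the 673 and 771 cells with 1000 or more genes and no more than 5% mitochondrial UMIs, the median was -0.40 and 1 gene was at least 2-fold lower.

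The Fos family encodes the partner that AP-1 can take only in a dimer with a JUN protein. Fosb (ENSMUSG00000003545, chromosome 7, 19302696 to 19310051, minus strand, GRCm38) had 5268 UMIs with oil and 1498 with tamoxifen. Its level was 79.8 CPM (77.6 to 81.9) against 24.7 (23.5 to 26.0), and its log2 ratio was -1.69 (-1.78 to -1.61), the lowest of all 10527 genes. Fos (ENSMUSG00000021250, chromosome 12, 85473890 to 85477273, plus strand) had 3991 UMIs with oil and 1576 with tamoxifen, which is 60.4 CPM (58.6 to 62.3) against 26.0 (24.7 to 27.3). Its log2 ratio was -1.22 (-1.30 to -1.13), rank 9 from the lowest. Fosb was thus above Fos in the oil sample and close to it in the other, where their intervals overlapped. A 3′ library counts each captured transcript once whatever its length, so levels are compared between genes without a length correction. How well each gene is captured was not checked, so an order of genes by level is one of counted UMIs.

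The Jun family can pair with FOS proteins or with itself, and JUND is known as a steadily expressed member that is less inducible than JUN. Jun (ENSMUSG00000052684, chromosome 4, 95049034 to 95052222, minus strand) had 26347 UMIs with oil and 11582 with tamoxifen. It went from 399 CPM (394 to 404) to 191 (187 to 194), at a log2 ratio of -1.06 (-1.09 to -1.03). Jund (ENSMUSG00000071076, chromosome 8, 70698949 to 70700616, plus strand) had 24284 and 16676 UMIs, at levels of 368 CPM (363 to 372) against 275 (271 to 279). The log2 ratio of Jund was -0.42 (-0.45 to -0.39). Summed over all kept cells, Jun therefore stood above Jund with oil and below it with tamoxifen, with no overlap of the intervals in either library. The order with oil moved with depth. With each oil cell drawn down to 3000 UMIs, as below, Jun had 8828 UMIs and Jund 8760. In the tercile of cells with the fewest UMIs these were 4104 and 4465, and in that with the most 2052 and 1664. Junb (ENSMUSG00000052837, chromosome 8, 84974484 to 84978718, minus strand) was at 120 CPM (118 to 123) against 85.1 (82.8 to 87.4) from 7940 and 5161 UMIs, a log2 ratio of -0.50 (-0.55 to -0.45).

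Both feedback genes were lower too. Dusp1 (ENSMUSG00000024190, chromosome 17, 26505590 to 26562128, minus strand), the MAP kinase phosphatase, had 2057 and 889 UMIs. The level was 31.1 CPM (29.8 to 32.5) against 14.7 (13.7 to 15.7), at a log2 ratio of -1.09 (-1.20 to -0.97). Zfp36 (ENSMUSG00000044786, chromosome 7, 28376784 to 28380253, minus strand), the mRNA decay factor, had 3572 and 1708 UMIs, at 54.1 CPM (52.3 to 55.9) against 28.2 (26.8 to 29.5). The log2 ratio of Zfp36 was -0.94 (-1.03 to -0.86), just short of a 2-fold difference.

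The other transcription factors and Ier2 differed least or were rarest. Ier2 (ENSMUSG00000053560, chromosome 8, 84661331 to 84662852, minus strand), a small nuclear protein of the early response, had 9216 and 6702 UMIs. It was at 140 CPM (137 to 142) against 110 (108 to 113), a log2 ratio of -0.34 (-0.38 to -0.29). Egr1 (ENSMUSG00000038418, chromosome 18, 34859823 to 34864984, plus strand), a zinc finger factor induced through SRF, had 2016 and 1498 UMIs. Its level was 30.5 CPM (29.2 to 31.9) against 24.7 (23.5 to 26.0), at a log2 ratio of -0.31 (-0.40 to -0.21). Under the stricter cell filter above the ratio of Egr1 was -0.0045 (-0.28 to 0.28), that of Ier2 -0.13 (-0.27 to 0.022) and that of Zfp36 -0.40 (-0.65 to -0.15). Atf3 (ENSMUSG00000026628, chromosome 1, 191170296 to 191218039, minus strand), a stress-induced CREB family repressor that can pair with JUN proteins, had 24 and 9 UMIs in all. That is 0.363 CPM (0.233 to 0.541) against 0.148 (0.0678 to 0.282), and its log2 ratio of -1.29 had an interval from -2.58 to -0.14. Under the stricter filter the ratio of Atf3 was 0.90 (-1.91 to 4.36), so these few UMIs give it no firm direction.

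Ordered by ratio, the genes ran from Fosb through Fos, Dusp1, Jun, Zfp36, Junb, Jund and Ier2 to Egr1, leaving out Atf3. The intervals of neighbours overlapped for Fos and Dusp1, for Dusp1 and Jun, and for Ier2 and Egr1, and those of Junb and Jund met at -0.45. Fosb stood apart from Fos, and all of the first 5 stood apart from the last 4. By level with oil, the intervals of Dusp1 and Egr1 overlapped and those of all other neighbours did not. With tamoxifen, Zfp36, Fos, Fosb and Egr1 lay within 24.7 to 28.2 CPM, and each overlapped its neighbour in that order.

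**Figure D1:**
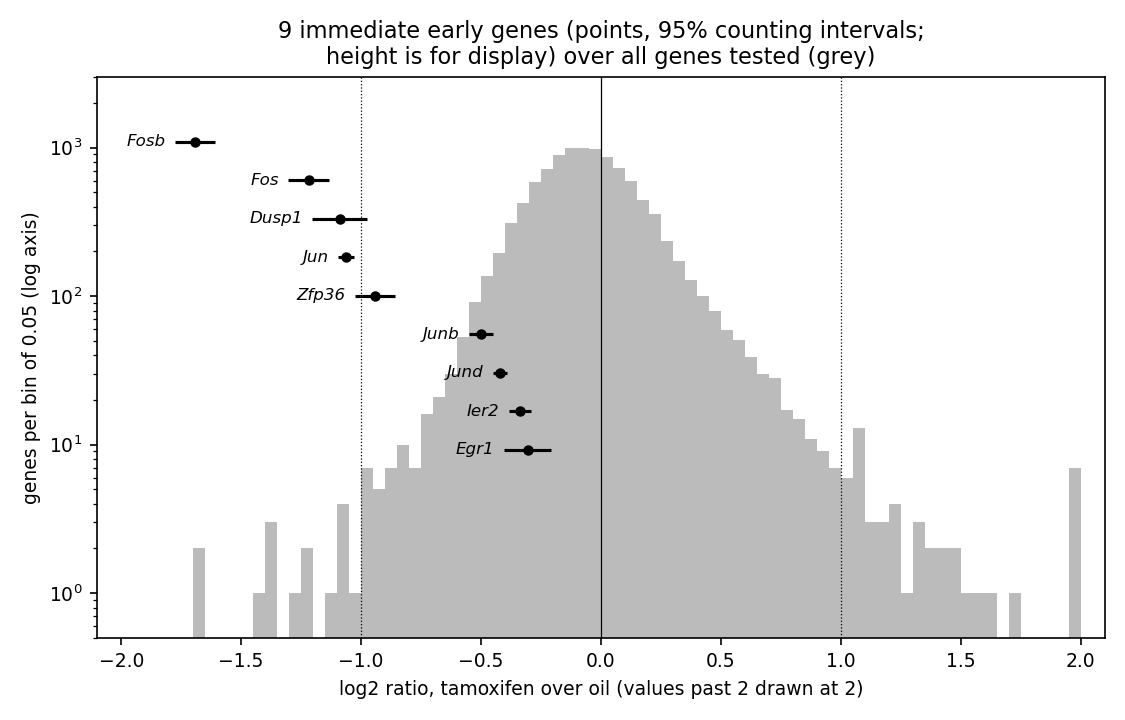
Grey bars count genes (log axis) by their log2 ratio of tamoxifen over oil, for 10527 genes with at least 100 UMIs, and black points are 9 of the immediate early genes with 95% counting intervals, at heights set for display. Fosb at -1.69 lies at the left end of all genes, Fos, Dusp1 and Jun lie past the dotted line of a 2-fold difference, and Junb, Jund, Ier2 and Egr1 lie inside the grey distribution.

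Next, the levels were split into how many cells had the transcript and how much those cells had. Each cell was thinned to 3000 UMIs, leaving 6330 and 6127 cells, because the share of cells with a UMI moves with depth. Fos was seen in 12.9% (12.1 to 13.7) of the cells of the library labelled oil and in 5.47% (4.91 to 6.07) of the other. Cells with a Fos UMI held 1.88 (1.79 to 1.98) and 1.86 (1.72 to 2.01) of them on average. On the log2 scale the share of Fos fell by 1.24 and the mean in positive cells by 0.015. In this random draw 98.8% of the difference was thus in the number of cells, and without thinning 86.7%. Dusp1 was similar, with 8.89% (8.20 to 9.62) and 4.33% (3.83 to 4.86) of cells and means of 1.28 and 1.25. Averaged over all draws, the shares were 12.8% and 5.73% for Fos and 8.65% and 4.70% for Dusp1. Egr1 was found in 8.23% and 6.69% of cells at means of 1.57 and 1.53. For these 3 genes the intervals of the means overlapped.

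Fosb differed in both parts. It was seen in 15.2% (14.3 to 16.1) and 6.32% (5.72 to 6.96) of cells, and positive cells held 1.80 (1.72 to 1.89) and 1.55 (1.43 to 1.68) UMIs. Jun was seen in 52.1% (50.9 to 53.4) and 32.3% (31.1 to 33.5), at 2.68 (2.62 to 2.73) and 2.09 (2.03 to 2.16) UMIs. The log2 share of Jun fell by 0.69 and the log2 mean in positive cells by 0.35, the most of any of the 9 genes above 100 UMIs. Jund, at 55.8% and 45.7% of cells, was the most widely detected in both libraries, with means of 2.48 and 2.27. Junb was in 30.1% and 23.0% of cells, Ier2 in 35.2% and 30.1%, and Zfp36 in 15.5% and 9.63%. Atf3 was in 9 and 3 thinned cells, or 0.142% and 0.049%. Over the 9 genes above 100 UMIs the share carried between 65.1% and 98.8% of the log2 difference in the thinned cells of this draw.

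Without thinning, all 10 shares were higher and the order between libraries was the same. Fos was then in 22.1% and 10.4% of cells, Fosb in 26.2% and 11.2%, Jun in 71.1% and 52.4%, Junb in 54.3% and 44.2% and Jund in 80.7% and 72.6%. Egr1 was in 14.6% and 11.5%, Dusp1 in 18.6% and 9.75%, Zfp36 in 28.5% and 18.9%, Ier2 in 65.0% and 57.8%, and Atf3 in 0.234% and 0.124%. The split moved with depth: without thinning the share carried 33.2% of the log2 difference for Jund, 39.9% for Jun and 44.1% for Ier2, where it carried 69.2%, 66.1% and 65.1% in thinned cells. The larger part for these 3 genes was then in the amount per positive cell. The number of cells and the amount per cell are linked at this depth, since a cell with little of a transcript often shows none. All cells came from 1 sorted population, so no cell type lacking these genes was at hand to give the share that free RNA alone would make.

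**Figure D2:**
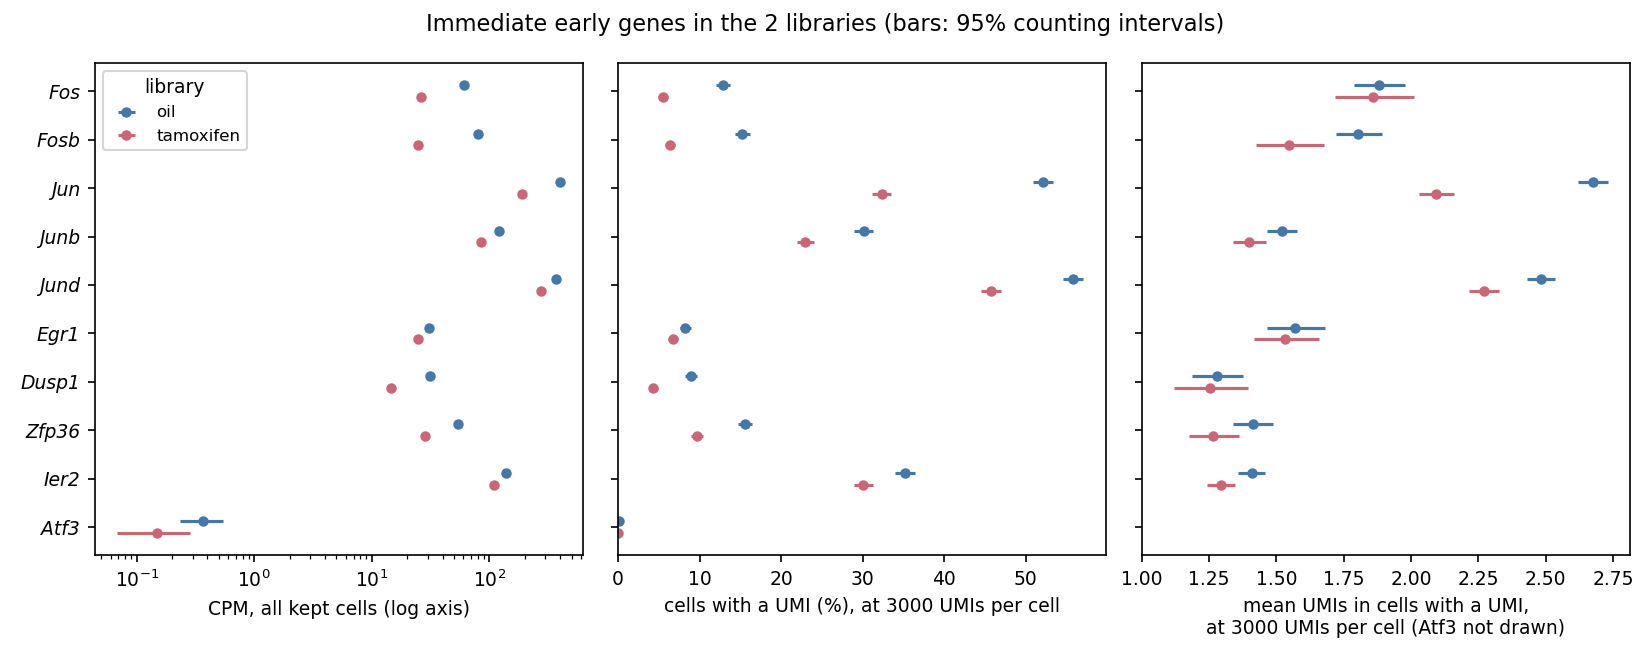
For each immediate early gene, points give the level in CPM over all kept cells (log axis), the percent of cells with a UMI and the mean UMIs in those cells, both at 3000 UMIs per cell, with 95% counting intervals, in blue for oil and red for tamoxifen. The percent of cells was lower with tamoxifen for every gene, while, of the 9 genes drawn in the right panel (Atf3 is left out), the intervals of the means in positive cells overlapped for Fos, Egr1, Dusp1 and Zfp36.

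The transcripts were unevenly spread over cells. Among thinned cells of the library labelled oil, 48 held at least 5 Fos UMIs and the highest held 25, where the mean over positive cells was 1.88. With tamoxifen, 21 held at least 5 and the highest held 12. Jun reached 28 and 32 UMIs in a single cell and Jund 19 and 32. The Fano factor, the variance over the mean, was 3.32 and 3.18 for Fos, 3.34 and 3.02 for Jun and 3.20 and 3.50 for Jund. It was lowest among the genes above 100 UMIs for Ier2, at 1.37 and 1.20. These genes differ in their mean, with which the Fano factor moves, and by another measure the order was different: with oil the 10% of cells with the most held 49.2% of Ier2 UMIs, 46.4% of Jun and 45.9% of Jund UMIs.

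Detection of 1 member went with detection of the others. Leaving out Atf3, the odds ratio of being seen in the same cell was above 1 for 36 of 36 pairs in both libraries, with a median of 2.76 and 3.13. Fos and Fosb were the closest pair, at odds ratios of 9.80 and 13.0. They were seen together in 421 cells (6.65%) with oil, where the product of their shares is 1.96%, and in 127 cells (2.07%) with tamoxifen, where it is 0.345%. Of cells with Fos, 51.7% and 37.9% also had Fosb, against 9.83% and 4.49% of cells without Fos. Fos went with Dusp1 at 4.44 and 6.73 and with Jun at 4.48 and 3.52. The lowest were Fosb with Ier2 at 1.58 in the oil sample and Dusp1 with Ier2 at 1.51 in the other. Cells of a library share their processing and mice, so no p-value is given for these pairs. Odds ratios were not computed for pairs of other genes, so the count is not read as particular to the members.

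The share of cells with several of the other genes was higher in classes of cells with more Fos UMIs. With oil, Fosb was in 9.83% (9.05 to 10.6) of cells with no Fos UMI, 41.8% (37.3 to 46.3) with 1, 62.9% (57.1 to 68.5) with 2 to 4 and 83.3% (69.8 to 92.5) with 5 or more. With tamoxifen the steps were 4.49%, 25.2%, 56.0% and 81.0% (58.1 to 94.6), the last over only 21 cells. Dusp1 went from 6.65% to 45.8% with oil and from 3.45% to 38.1% with tamoxifen between the first and the last of these classes. Egr1 went from 6.51% to 37.5% and from 5.59% to 52.4%. Jund was already in 52.0% and 43.7% of cells with no Fos UMI and reached 93.8% and 100% (83.9 to 100). Ier2 with oil was at 54.2% in each of the last 2 classes, and Atf3 was in 0.127%, 0.416%, 0% (0 to 1.28) and 0% (0 to 7.40) of cells with oil, from 9 cells in all.

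The families that form AP-1 were thus present together in most Fos-positive cells. A Fos family transcript (Fos or Fosb) was seen in 21.4% (20.4 to 22.5) and 9.71% (8.98 to 10.5) of cells, and a Jun family transcript (Jun, Junb or Jund) in 77.3% and 64.1%. Of cells with a Fos family transcript, 94.5% and 89.4% had a Jun family transcript, against 72.6% and 61.4% of those without. Both families were in 20.3% (19.3 to 21.3) and 8.68% (7.99 to 9.42) of cells, and neither in 21.5% and 34.9%. A Fos family transcript without any of the Jun family was in 1.18% and 1.03% of cells.

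**Figure D3:**
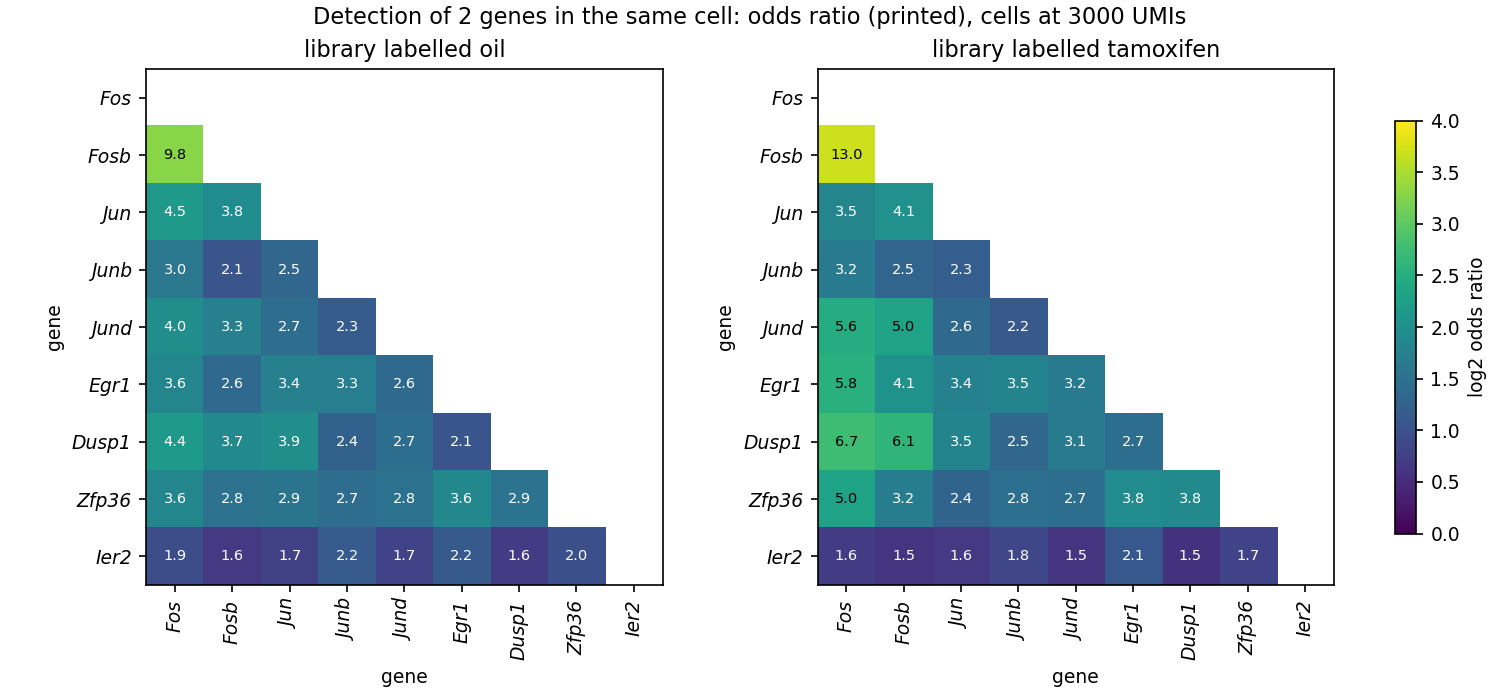
Each square gives the odds ratio of detecting a pair of genes in the same cell at 3000 UMIs (printed), coloured by its log2, for 36 pairs in the libraries labelled oil (left) and tamoxifen (right). Fos with Fosb is highest in both, at 9.80 and 13.0, and the bottom row, the pairs with Ier2, holds the lowest values.

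Counted per cell, the median was 2 members with oil and 1 with tamoxifen, and the mean 2.34 and 1.64. No member was seen in 15.0% (14.2 to 15.9) and 24.7% (23.6 to 25.8) of cells. At least 3 were seen in 40.1% (38.9 to 41.4) and 23.1% (22.0 to 24.1). At least 5 were seen in 13.1% (12.2 to 13.9) and 5.47% (4.91 to 6.07), where shares combined as if independent give 4.11% and 0.698%. At least 7 were in 2.92% and 0.849%, and the most in 1 cell was 9, in 11 cells of the library labelled oil and 1 of the library labelled tamoxifen. Both ends of the distribution, cells with none and cells with many, thus held more cells than the product of single shares. The difference in the share with at least 3 members was -17.1 points, and -12.6 points under the stricter filter, where the median was 2 members in both libraries.

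The summed UMIs of the 10 genes per thinned cell averaged 4.71 and 2.90, with medians of 3 and 2. The 10% of cells with the most held 38.6% of all members' UMIs with oil and 44.0% with tamoxifen. The highest cell held 66 and 56, and 3.18% and 1.09% of cells held 20 or more. The log2 ratio was -0.58 at the median cell, -0.65 at the 90th percentile (11 and 7 UMIs) and -0.38 at the 99th (26 and 20 UMIs).

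**Figure D4:**
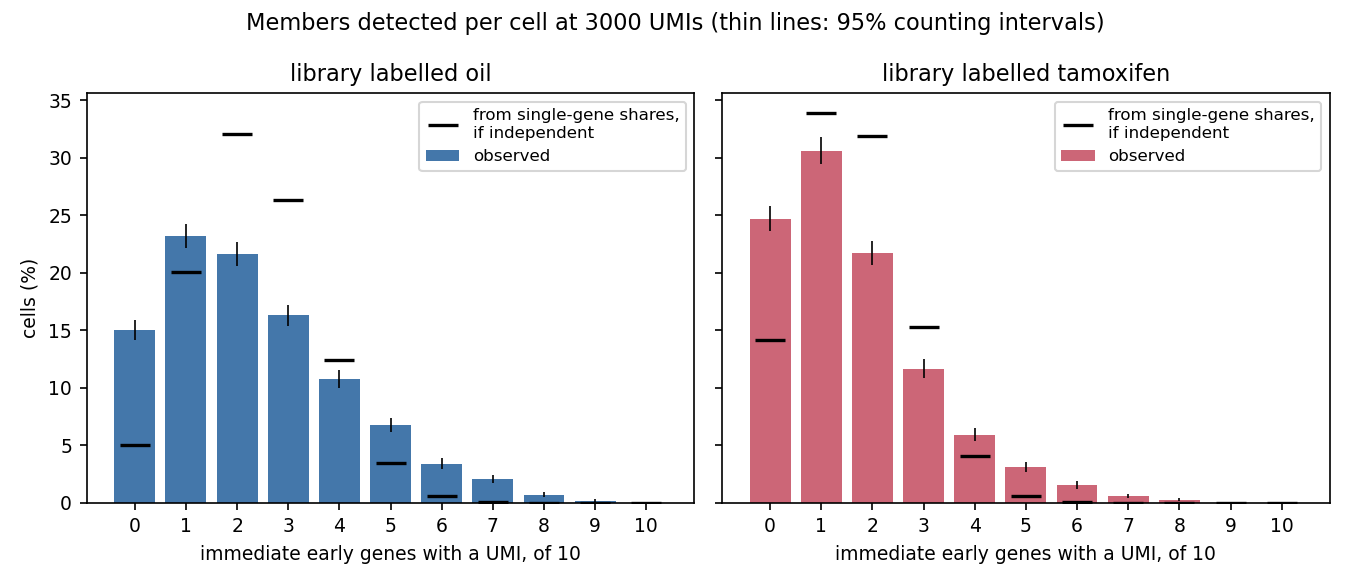
Bars give the percent of cells (at 3000 UMIs) with each number of the 10 immediate early genes, thin lines the 95% counting intervals and dashes the percent obtained by multiplying single-gene shares. No member was seen in 15.0% of cells with oil and 24.7% with tamoxifen, and in both panels cells with 0 and with 5 or more members are more frequent than the dashes.

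Cells with many members differed from the rest in depth, cycle and composition. With oil, cells with 5 or more members had a median of 5816 UMIs before thinning, and cells with none 12045. With tamoxifen these were 5319 and 10800. The median ribosomal protein share was 20.9% against 25.8% with oil and 23.9% against 29.2% with tamoxifen. G1 cells, those above the mean for neither the S nor the G2M gene list, were 73.4% against 26.6% and 87.8% against 42.7%. The median mitochondrial share differed little, at 7.11% against 6.93% and 6.64% against 6.94%. Vim, which encodes the filament protein vimentin, was at 19.0 against 3.57 and 15.8 against 3.13 UMIs per thinned cell. Vim is among the genes most correlated with the summed members in these same cells, given below, so this is not a separate result. Kit was at 1.35 against 0.516 and 1.72 against 0.739.

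These cell features also differed between the libraries, so the members were compared within groups of like cells. G1 cells were 44.5% of the library labelled oil and 59.9% of the library labelled tamoxifen. Summed over the 10 genes, G1 cells held 6.67 (6.58 to 6.77) and 3.79 (3.73 to 3.86) UMIs, S cells 3.22 and 1.56, and G2M cells 3.04 and 1.59. The log2 ratio was -0.82 in G1, -1.04 in S and -0.94 in G2M. In terciles of total UMIs over both libraries it was -0.72, -0.77 and -0.86 from the lowest to the highest. In terciles of the mitochondrial share it was -0.54, -0.85 and -0.74. Cells with an Isg15 UMI, a readout of interferon, gave -0.57 (-0.64 to -0.50) and those without -0.73 (-0.76 to -0.70).

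Of these groupings, the one by ribosomal protein share moved the ratio most. The highest tercile of that share, over both libraries, held 13.5% of cells with oil and 53.8% with tamoxifen. From the lowest to the highest tercile, the members' log2 ratio was -0.32 (-0.36 to -0.28), -0.51 (-0.56 to -0.45) and -0.50 (-0.56 to -0.43), against -0.70 over all thinned cells. Cells of the lowest tercile held 6.52 and 5.21 UMIs of the members and those of the highest 3.05 and 2.16. Jun was lower in each tercile, at -0.73, -0.94 and -0.80, and so was Dusp1, at -0.60, -0.69 and -1.39. Jund was at 0.0059 (-0.060 to 0.072) in the lowest tercile. Egr1 was at 0.13 (-0.073 to 0.33) in the lowest and 0.37 (0.027 to 0.72) in the middle tercile, and at -0.54 (-0.94 to -0.14) in the highest. The part of the ribosomal share in the difference was not tested.

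**Figure D5:**
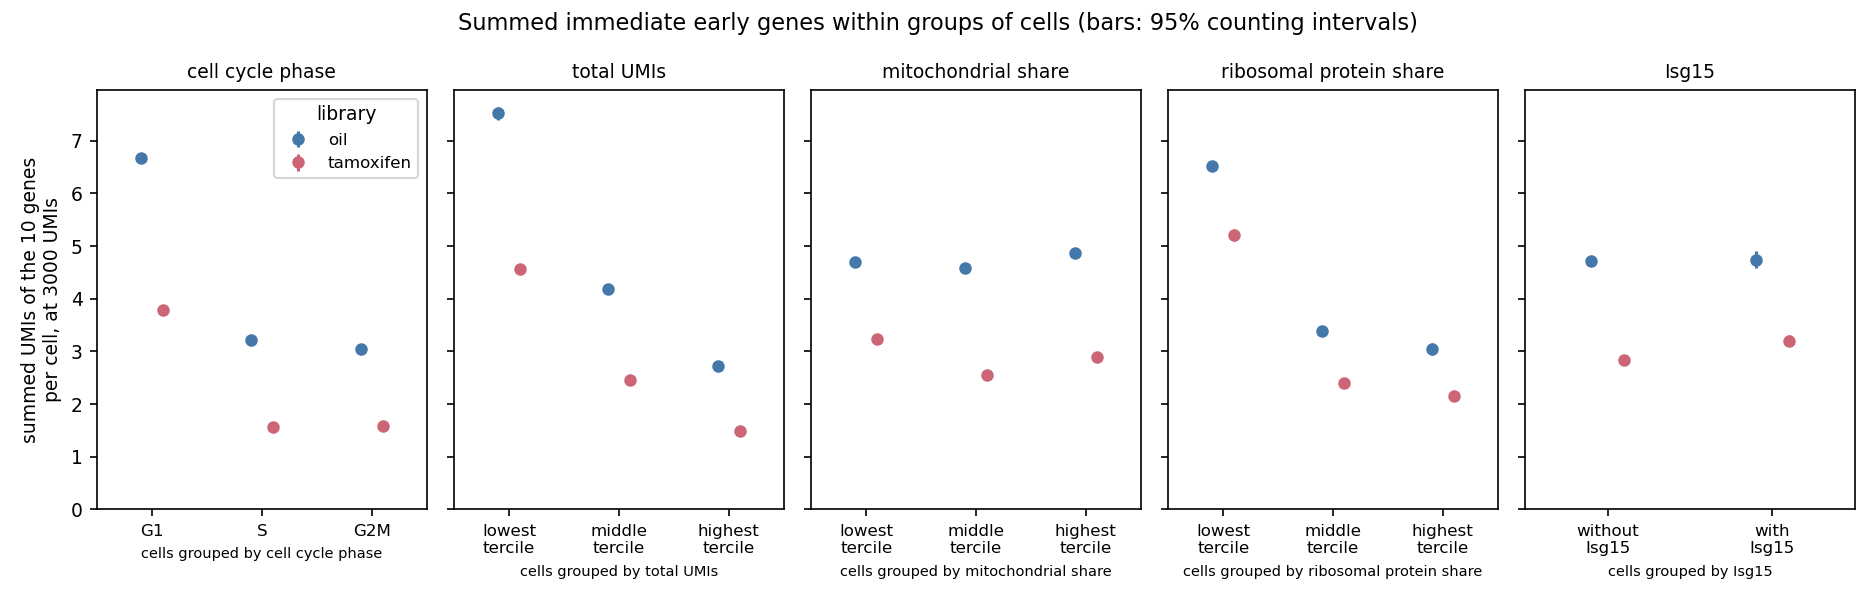
Points give the summed UMIs of the 10 immediate early genes per cell at 3000 UMIs (from 0), with 95% counting intervals, for cells grouped by cell cycle phase, total UMIs, mitochondrial share, ribosomal protein share and Isg15, in blue for oil and red for tamoxifen. The red point is below the blue one in every group, and the ratio is nearest to 1 in the lowest ribosomal tercile, at 6.52 and 5.21.

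Pairs of members went together within these groups as well, again with no pairs of other genes set beside them. Of 36 pairs, 36 had an odds ratio above 1 in each cell cycle phase and in each tercile of total UMIs and of ribosomal share with oil. With tamoxifen it was 36 in 7 of these 9 groups, 34 in S phase and 31 in the highest tercile of total UMIs. Fos with Fosb was the highest pair in every group, from 7.14 to 11.2 with oil and from 7.87 to 28.1 with tamoxifen. Barcodes left out by the cell filter, 936 and 839, were lower for the members too: Fos was at 88.7 and 41.0 CPM (log2 interval -1.38 to -0.85) and Jun at 400 and 223 CPM (-0.96 to -0.73).

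The rest of the AP-1 family did not go the same way. Of 20 further FOS, JUN, ATF, MAF, BATF and BACH genes, 10 reached 100 UMIs, with a median log2 ratio of 0.067. The counting interval lay below 0 for 2 and above 0 for 4, where over all genes it did for 39.8% and 19.3%. Atf5 and Atf4, factors of the integrated stress response, were at -0.40 (-0.54 to -0.27) and -0.30 (-0.34 to -0.26), and Atf6 at -0.042. Fosl2, which encodes FRA2, was at 0.36 (0.084 to 0.64), from 200 and 236 UMIs. Bach1, a heme-sensing repressor, was at 0.20 (0.14 to 0.27) and Atf7 at 0.17 (0.071 to 0.26).

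Other immediate early genes were mostly lower. Of 32 listed, 20 reached 100 UMIs, 15 of them were below and 5 above 0, with a median of -0.32. Of all genes, 61.7% were below 0. The interval lay below 0 for 13 of the 20 and above 0 for 4, where over all genes it did for 39.8% and 19.3%. The lowest were Trib1, a pseudokinase, at -0.61 (-0.94 to -0.29), Klf6, a Kruppel-like factor, at -0.52 (-0.56 to -0.47) and Ppp1r15a, the GADD34 phosphatase subunit, at -0.47. Sgk1, a kinase induced by serum and glucocorticoid, was higher at 0.62 (0.57 to 0.67), as were Csrnp1 at 0.49 (0.30 to 0.67) and Nfkbiz at 0.23 (0.039 to 0.41). None of the 20 was 2-fold different.

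The kinases upstream and the remaining feedback genes differed less. Of 32 MAP kinase pathway genes leading to SRF and AP-1, 29 were measured with a median of -0.038. The interval lay below 0 for 12, a share near the 39.8% of all genes. It lay above 0 for 2, a share under the 19.3% of all genes. Map2k1 (MEK1) was at -0.40 (-0.50 to -0.30) and Hras at -0.31, while Rps6ka1, an ERK-activated kinase, was at 0.11, Rps6ka5 at 0.065 and Elk1, an SRF partner, at 0.12 (-0.15 to 0.38). Of 20 other genes of MAP kinase feedback and mRNA decay, 14 were measured with a median of -0.060. The interval lay below 0 for 3 and above 0 for 3, where over all genes it did for 39.8% and 19.3%. Dusp7 was at -0.22, Dusp2 at -0.20 (-0.44 to 0.033) and Cnot1, the scaffold of the deadenylase that ZFP36 recruits, at -0.17. Zfp36l2, a relative of Zfp36, was higher at 0.34 (0.30 to 0.37), as was Dusp16 at 0.36 (0.19 to 0.54), and Spry2 was at 0.38 (-0.00052 to 0.77).

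Heat shock genes, which encode chaperones, were lower for 12 of 13 measured, each with its interval below 0. Their median was -0.25. Over all genes, 61.7% were lower and 39.8% had the interval below 0. Hspa1a was at -0.53 (-0.88 to -0.17) from 174 and 111 UMIs, Hspd1 at -0.46 and Hsp90aa1 at -0.40, with Dnajb4 at 0.15 the exception. S phase genes were lower for 42 of 43, with a median of -0.40, and G2M genes for 50 of 52, with a median of -0.36. Mast cell and basophil markers were lower for 8 of 8 measured, with a median of -0.36. Erythroid markers were split. They were lower for 6 of 10, near the share of all genes, with a median of -0.016. Their interval lay below 0 for 4 and above 0 for 4, where over all genes it did for 39.8% and 19.3%. Hba-a2 was at 0.82 (0.80 to 0.83), Hba-a1 at 0.59 and Alas2 at 0.56. Car1 was at -0.30, Tfrc at -0.24 and Epor at -0.18. The part of these differences in those of the members was not tested.

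Finally, 6092 genes were ranked by how their thinned counts went with the summed members over the cells of each library, both as the log of 1 plus the UMIs. A correlation here is over 6330 and 6127 cells that share a library and its depth, and over all ranked genes the median Pearson r was 0.0087 and 0.0085. The 10 most alike were Neat1 at 0.46 and 0.39, Vim at 0.44 and 0.38, Klf6 at 0.43 and 0.36, Serpinb1a at 0.41 and 0.35, Ahnak at 0.36 and 0.34, Malat1 at 0.34 and 0.33, Lgals3 at 0.34 and 0.32, Klf2 at 0.32 and 0.32, Crip1 at 0.36 and 0.31 and Adgre5 at 0.33 and 0.28. Neat1 and Malat1 are long RNAs kept in the nucleus, and Klf6 and Klf2 are listed above as immediate early genes. Of the 10, 8 were lower with tamoxifen, where 61.7% of all genes were, and they ran from -0.52 for Klf6 to -0.025 for Neat1. Malat1 and Crip1 were higher, at 0.33 and 0.25. Near the other end stood the ribosomal protein genes Rps2 and Rpl14 with Npm1 and Ptma, each between -0.32 and -0.29. A member set against the sum of the other 9 gave 0.48 and 0.42 for Jun, 0.46 and 0.45 for Jund, 0.40 and 0.32 for Fos and 0.060 and 0.050 for Atf3.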

How the data were processed

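GFP+ Lin- c-Kit+ splenocytes were profiled with the 10x 3′ V3 kit in 2 libraries, and the authors mapped reads to mm10 with Cell Ranger 3.0.2. The deposited matrices hold raw UMI counts per gene and cell, with no normalization. Cells were kept from 500 detected genes and up to 10% mitochondrial UMIs (66045700 and 60661486 UMIs). No doublets were removed. UMIs were summed per library to CPM with exact Poisson intervals. Intervals of log2 ratios are conditional binomial and those of shares Clopper-Pearson, both exact, all at 95% and for counting error only. For shares and pairs each cell was thinned to 3000 UMIs in 1 seeded draw, leaving out 508 and 345 shallower cells. A gene was measured with at least 100 UMIs over both libraries.

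The members and gene lists were chosen with earlier results of these data known. Named are the members, Usp18 and Kit, the 3 highest and 3 lowest ratios of the lists described, and the 10 genes most correlated with the summed members. The result for 1 gene that this selects is not reported here. Other genes named (Ptprc, Isg15, markers at 0, genes at the opposite end of the correlations) were picked after their values were seen, as were the ribosomal terciles, the correlation without log transformation (10 of the 10 genes shared) and the promoter motifs. Positions come from GENCODE M21 (GRCm38). The ratio step was tested on simulated library sums with Poisson counting error alone, so that test says nothing of the spread between cells or mice. Alternatives were other cell filters, TMM scaling (edgeR 4.0.16), median-ratio scaling (DESeq2 1.42.0), another total, equal weight per cell, other minimums and other thinning. Values were computed in Python 3.11.15 with pandas 2.3.3, scipy 1.17.1, numpy 2.4.6 and matplotlib 3.10.9, and in R 4.3.3.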

Additional observations from a re-analysis of the deposited data

How the results depend on the processing

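No paired analysis was possible because oil and tamoxifen have a single library each. The median log2 ratio of the members, -0.94, was -0.40 in cells with 1000 or more genes and no more than 5% mitochondrial UMIs (673 and 771 cells) and -0.83 as a mean of per-cell CPM. The number of members at least 2-fold lower, 4, was then 1 and 2. The intervals of 7 rather than 9 members lay below 0 under that filter, where Atf3, with 33 UMIs in all, reversed to 0.90 (-1.91 to 4.36). The difference in the share of cells with at least 3 members, -17.1 points, was -10.4 at 1500 UMIs per cell, -19.4 at 5000 and -12.6 under that filter. The difference in median members per cell, -1, was 0 at 1500 UMIs and 0 under that filter. The causes were not tested. Of 80 ratios of single members under alternatives, 79 were below 0, and of 60 differences in their shares, 58. Other scalings moved the ratio of all genes by 0.039 to 0.080, and the total that leaves out mitochondrial and ribosomal protein genes left 3 members at least 2-fold lower. A minimum of 20 UMIs added Atf3 and gave 5. Depth sets the size of the share differences: at 1500, 3000 and 5000 UMIs that of Fos was -4.53, -7.41 and -9.46 points and that of Dusp1 -1.84, -4.57 and -6.72. The shares of Atf3 rest on 9 and 3 cells.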
